A study of Mus musculus with 6 samples.

Results

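The stress cytokine gene Gdf15 and 7 genes of the integrated stress response, Atf3, Atf4, Ddit3, Trib3, Chac1, Asns and Sesn2, were followed through the cells of orthotopic pancreatic tumours of the mouse. The 8 genes were taken by symbol from the 32285 genes of the count files. They were selected on the level of Gdf15 in neutrophils, which had stood apart between the labelled groups in these same libraries. No p-value of these genes or of a list is therefore given between the groups in neutrophils. Counts and shares over all genes in that contrast are background only. KPC cells were injected into the pancreas of C57BL/6 mice. This pancreatic cancer line, the same in both groups, carries mutant Trp53 and derives from mice with Pdx1-cre, a recombinase driven by a pancreatic promoter. By the labels the injected cells bore either a vector (OE-Vector) or an MLKL overexpression construct (OE-MLKL), while the host cells, including the neutrophils, macrophages and T cells, bore neither. MLKL is the pseudokinase that ruptures the plasma membrane in necroptosis. Of the 6 labelled samples, 3 per group, a single OE-Vector library (OE-Vector 1) and all of the OE-MLKL libraries (1, 2 and 3) had count matrices that were used here. With 1 OE-Vector library, a difference between the groups and a difference between tumours cannot be told apart. Each library was loaded from its own tumour, and whether each KPC line was a clone is not given in the sources used here.

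The integrated stress response starts when the kinases PERK, GCN2, PKR or HRI phosphorylate the translation factor eIF2α, which slows protein synthesis in general and favours translation of the transcription factor ATF4. ATF4 and its partners then switch on genes of amino acid supply and, under lasting stress, of growth arrest and death. GDF15 is a secreted member of the TGFβ family that many stressed cells release and that acts through the receptor GFRAL with the co-receptor RET in the brainstem. In tumours, neutrophils and cancer cells meet low oxygen, scarce amino acids and oxidative stress, each a known trigger of this response.

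ATF4 binds with C/EBP partners to a composite element, searched here as TGATGNAA on both strands of the RefSeq promoter windows, which run from 250 bases before to 50 bases after each start. The element stood in the windows of 4 of the 8 genes, Atf3, Chac1, Trib3 and Asns, and in 1304 of all 32851 windows (3.97%). The 4 stretches are shown because these genes are the ones with the letters of the ATF4 element, with the match in capitals. All are from GRCm38.p6, written 5′ to 3′ on the strand of the gene. The Atf3 stretch is chr1:191183410-191183469, minus strand, and the Chac1 stretch is chr2:119351023-119351082, plus strand. The Trib3 stretch is chr2:152344028-152344057, minus strand, and the Asns stretch is chr6:7693210-7693258, minus strand.
Atf3: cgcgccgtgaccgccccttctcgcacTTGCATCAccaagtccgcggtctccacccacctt
Chac1: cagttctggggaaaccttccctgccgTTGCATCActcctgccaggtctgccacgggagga
Trib3: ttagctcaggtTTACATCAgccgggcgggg
Asns: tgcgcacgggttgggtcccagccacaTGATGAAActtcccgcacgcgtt
The match begins 110 bases before the start in Atf3, 193 before it in Chac1, 23 before it in Asns and 14 bases after it in Trib3. In Atf3, Chac1 and Trib3 the match is read on the strand opposite to the gene. The 9 windows of the 8 genes include a pair for Gdf15, and the windows of Gdf15, Atf4, Ddit3 and Sesn2 did not hold these letters. The cAMP response element TGACGTCA, read on both strands, was in none of the 9 windows and in 588 of all windows (1.79%). A match is a run of letters, and its absence says nothing of what binds there.

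Counts are UMIs, molecular tags that count each captured transcript end. Totals were 150591289 UMIs in OE-Vector 1 and 162204859 to 169978362 in the OE-MLKL libraries, with 15382 to 23063 cells per library, of which 73 to 134 barcodes were shared between any pair of libraries. Cells were gated on marker genes, and the UMIs of each class were summed per library. This gave 5457 to 8758 neutrophils, 2086 to 3033 macrophages, 3016 to 8402 cancer cells and 576 to 1027 T cells. The paper separated cancer cells from duct cells by copy number, which was not used here. The class of cancer cells may therefore include host epithelial cells, which bore neither vector nor construct. Each class held its own defining markers, as the gate requires, so their level is no test of the classes. They stood at 75037 to 85352 CPM (UMIs scaled to a class total of 1000000) in neutrophils and 15112 to 17880 in macrophages. In cancer cells and T cells they stood at 2240 to 4167 and 5110 to 6849 CPM. Mlkl itself was not higher in the cancer cells labelled OE-MLKL, at 16.4 CPM in OE-Vector 1 and 8.49, 12.9 and 19.6 CPM in OE-MLKL 1, 2 and 3 (log2 fold change -0.41 ± 0.39 SE, edgeR adjusted p = 0.992). Transcripts of the construct are counted only if they share the 3′ end of the annotated gene, which the files do not show, so this level may not measure the overexpression. The group names stand below for the library labels. Since the tags sit at the 3′ end, CPM values are compared between classes and libraries and not between genes.

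Gdf15 (chr8:70629393-70632456, minus strand) was highest in cancer cells. There it reached 56.3 CPM in OE-Vector 1 and 37.5, 30.3 and 25.9 CPM in OE-MLKL 1, 2 and 3. Macrophages held 21.5, 21.9, 13.6 and 8.38 CPM in the same order, and neutrophils 32.6, 5.77, 4.74 and 7.01 CPM. In T cells the values were 3.26, 4.76, 3.55 and 5.72 CPM. Cancer cells stood above macrophages in each of the 4 libraries without overlap, whereas the neutrophil values overlapped those of each other class. The fit over the 4 libraries, with the library as a block, placed cancer cells 2.04-fold above macrophages (log2 1.03 ± 0.34, edgeR adjusted p = 0.0137), a call that was lost with DESeq2 (adjusted p = 0.0525) and without OE-MLKL 3 (adjusted p = 0.0846). Cancer cells were 8.93-fold above T cells (log2 3.16 ± 0.47, edgeR adjusted p = 2.81e-05) and macrophages 4.39-fold above T cells (log2 2.13 ± 0.49, edgeR adjusted p = 0.00156). For neutrophils, which the choice of the gene involved, the fitted log2 difference of cancer cells was 1.45 with all libraries and 1.98 without OE-Vector 1.

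**Figure D1:**
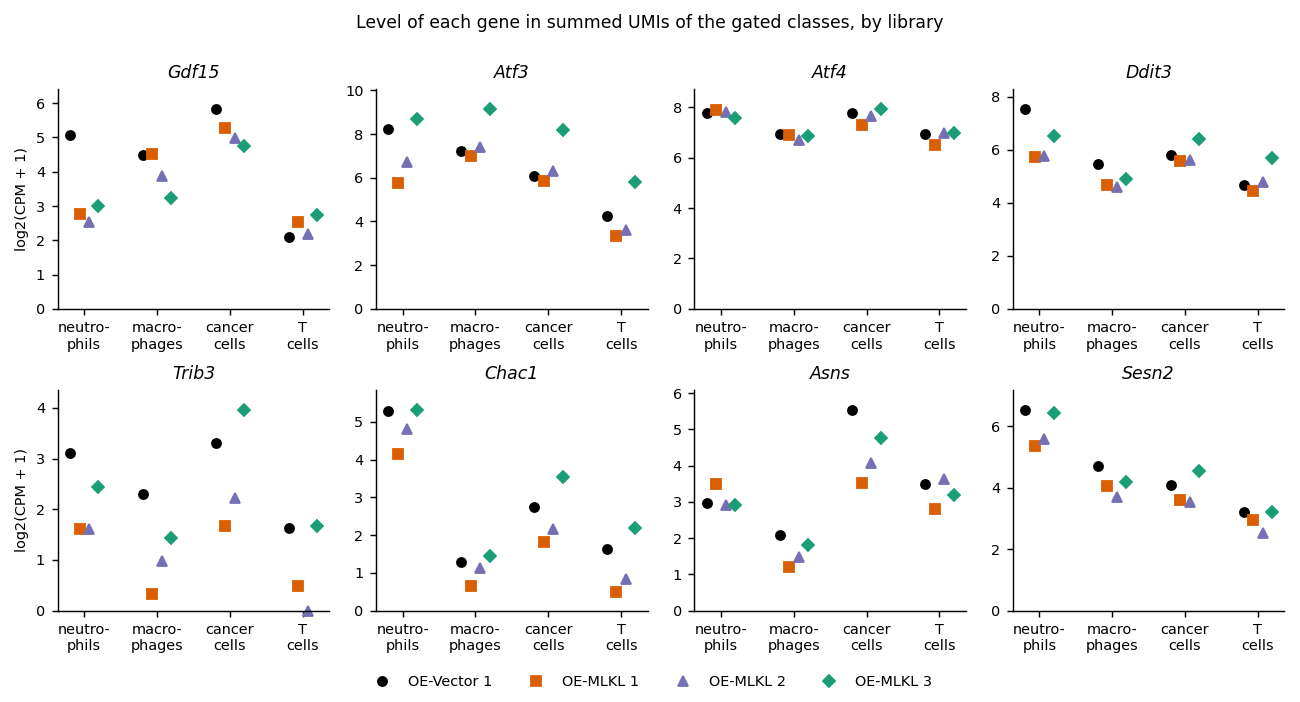
Level of each gene, as log2(CPM + 1) of the summed UMIs, in neutrophils, macrophages, cancer cells and T cells, with a point per library (4 libraries). Gdf15 is highest in cancer cells and lowest in T cells in every library (3.26 to 5.72 CPM), and Chac1 and Sesn2 are highest in neutrophils in every library.

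RNA set free from broken cells bounds what the low values can mean. Barcodes with at most 100 UMIs, which hold mainly free RNA, carried Gdf15 at 52.3, 40.2, 25.8 and 25.3 CPM in OE-Vector 1 and OE-MLKL 1, 2 and 3. Taking all cancer-marker UMIs in T cells as free RNA, it could supply at most 4.94, 2.62, 2.22 and 3.62 CPM of Gdf15, against the 3.26 to 5.72 CPM measured. The same limit in neutrophils was 7.28, 5.61, 4.09 and 5.64 CPM. Neutrophils of the OE-MLKL libraries lay 0.164 to 1.37 CPM above that limit, and those of OE-Vector 1 lay 25.4 CPM above it. In macrophages Gdf15 exceeded its limit by 15.9 CPM in OE-Vector 1 and by 18.2, 10.9 and 4.14 CPM in OE-MLKL 1, 2 and 3.

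Per cell, 42.0% of the cancer cells held a Gdf15 UMI in OE-Vector 1, with a binomial 95% interval (exact) of 40.2 to 43.8, against 22.5%, 19.4% and 23.5% in OE-MLKL 1, 2 and 3. Cancer cells were deep, with a median of 12316.5 to 25523.5 UMIs, so each cell was also thinned to 500 UMIs. The share then became 2.45%, 1.79%, 1.57% and 1.18% in cancer cells, in the order OE-Vector 1 and OE-MLKL 1, 2 and 3. It was 0.911%, 1.07%, 0.670% and 0.297% in macrophages. T cells, which serve as the background, gave 0.487%, 0.174%, 0.151% and 0.358% at a median depth of 2689.5 to 3648 UMIs before thinning. The exact binomial 95% intervals of macrophages and T cells overlapped in each of the 4 libraries, and in OE-MLKL 3 the thinned shares rested on 9 macrophages and 3 T cells. Overlap of separate intervals cannot decide whether the 2 classes differ at this depth, and their difference was not tested. The macrophage share was the higher in each library but OE-MLKL 3, whereas in CPM macrophages were above T cells in each library. Intervals cover counting error only.

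The transcription factors of the response came next. Atf4 (chr15:80255184-80257541, plus strand), the factor at its centre, varied least of the 8 genes between libraries, within each class. It stood at 188 to 234 CPM in neutrophils and 158 to 246 CPM in cancer cells, and at 104 to 123 CPM in macrophages and 90.5 to 127 CPM in T cells. Neutrophils and cancer cells lay above macrophages and T cells without overlap, and macrophages and T cells did not differ beyond their spread (log2 0.16 ± 0.12, edgeR adjusted p = 0.267). Neutrophils were 1.28-fold above cancer cells in the fit (edgeR adjusted p = 0.0142), although the values overlapped. ATF4 is controlled largely at translation, so its mRNA is a partial view of its activity.

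Atf3 (chr1:191170296-191218039, minus strand), a stress-induced factor of the same family, differed more between libraries than any other of the factors. It was at 295, 52.99, 104 and 406 CPM in neutrophils and 148, 126, 167 and 572 CPM in macrophages of OE-Vector 1 and OE-MLKL 1, 2 and 3. Cancer cells held 66.8, 57.2, 78.6 and 287 CPM and T cells 17.8, 9.13, 11.05 and 54.2 CPM. OE-MLKL 3 was the highest library in each of the 4 classes. T cells were lowest, 13.3-fold below macrophages (edgeR adjusted p = 2.49e-07) and 5.52-fold below cancer cells (edgeR adjusted p = 1.23e-05). Free RNA could supply up to 10.8, 5.24, 8.58 and 40.4 CPM of the Atf3 of T cells, most of their level in each library. Macrophages and neutrophils did not differ beyond their spread (log2 0.17 ± 0.30, edgeR adjusted p = 0.611). Without OE-Vector 1 macrophages were above neutrophils (log2 0.69, edgeR adjusted p = 0.00166). Gm24748 overlaps Atf3 on the other strand.

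Ddit3 (chr10:127290774-127296288, plus strand), which encodes the pro-apoptotic factor CHOP, was highest in neutrophils. It was at 187, 52.2, 52.7 and 91.1 CPM there, against 54.1, 47.2, 47.5 and 84.8 CPM in cancer cells, in the order OE-Vector 1 and OE-MLKL 1, 2 and 3. Neutrophils exceeded cancer cells in each library, 1.84-fold in the fit (edgeR adjusted p = 0.0104). The free RNA limit rested on cancer markers in neutrophils and on neutrophil markers in cancer cells. Above it the values were 175, 44.3, 43.9 and 72.9 CPM in neutrophils and 48.4, 42.5, 41.6 and 77.5 CPM in cancer cells. The order was thus the opposite in OE-MLKL 3, but the 2 limits are upper bounds of unlike basis, so that order is not settled. Macrophages and T cells were lower, at 22.9 to 43.1 and 20.6 to 50.1 CPM, and did not differ beyond their spread (edgeR adjusted p = 0.671). The excess of cancer cells over macrophages (log2 0.81 ± 0.28, edgeR adjusted p = 0.0191) was lost without any 1 of the OE-MLKL libraries (adjusted p = 0.0686, 0.0765 and 0.148). Ddit3 overlaps Mars and Gm4189 on the other strand, and a second identifier of the same symbol held no UMI.

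Among the targets, Chac1 (chr2:119351229-119354381, plus strand), whose product degrades glutathione, had the largest fold difference between classes of the 8 genes. Neutrophils held 37.9, 16.7, 26.9 and 38.5 CPM in OE-Vector 1 and OE-MLKL 1, 2 and 3. Cancer cells held 5.69, 2.51, 3.49 and 10.6 CPM. No neutrophil value overlapped any other class, and the excess was 7.11-fold over cancer cells (log2 of cancer cells minus neutrophils -2.83 ± 0.17, edgeR adjusted p = 6.19e-10). It was 26.6-fold over macrophages (edgeR adjusted p = 1e-10) and 21.8-fold over T cells (edgeR adjusted p = 7.52e-10). Chac1 in macrophages, at 0.576 to 1.74 CPM, differed from the free RNA limit by -0.473 to 0.612 CPM. Thinned to 500 UMIs, a Chac1 UMI was seen in 1.88%, 0.971%, 1.46% and 2.29% of neutrophils and in at most 0.270% of cancer cells and 0.119% of T cells. Chac1 was thus highest in neutrophils in every library.

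Sesn2 (chr4:132492032-132510501, minus strand), which restrains mTORC1 when leucine is short, followed the same order at the top. Neutrophils held 90.9, 40.2, 47.2 and 85.5 CPM in OE-Vector 1 and OE-MLKL 1, 2 and 3. Macrophages held 25.3, 15.7, 12.1 and 17.3 CPM, cancer cells 16.1, 11.1, 10.7 and 22.5 CPM, and T cells 8.24, 6.75, 4.73 and 8.17 CPM. Neutrophils overlapped no other class. They were 3.89-fold above macrophages (edgeR adjusted p = 1.11e-07), 5.24-fold above cancer cells (edgeR adjusted p = 4.21e-09) and 11.5-fold above T cells (edgeR adjusted p = 2.03e-09). The step from macrophages to cancer cells was small (log2 -0.43 ± 0.17, edgeR adjusted p = 0.0309) and was lost with limma-voom, without OE-MLKL 2 and without OE-Vector 1 (adjusted p = 0.0509, 0.0818 and 0.106). Gm12981 overlaps Sesn2 on the same strand.

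Asns (chr6:7675169-7693254, minus strand), the asparagine synthetase gene, was instead highest in cancer cells. The values there were 45.0, 10.5, 15.7 and 25.9 CPM in OE-Vector 1 and OE-MLKL 1, 2 and 3, against 6.83, 10.3, 6.54 and 6.50 CPM in neutrophils. Cancer cells exceeded neutrophils 2.44-fold (edgeR adjusted p = 0.000817), T cells 2.51-fold (edgeR adjusted p = 0.00169) and macrophages 8.85-fold (edgeR adjusted p = 2.31e-07). T cells, at 5.96 to 11.4 CPM, and neutrophils did not differ beyond their spread (log2 -0.05 ± 0.35, edgeR adjusted p = 0.914). Asns in macrophages, at 1.32 to 3.22 CPM, differed from the free RNA limit by -0.588 to 0.188 CPM. The cancer cells therefore led in the amino acid synthesis target and the neutrophils in the glutathione and mTORC1 targets.

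Trib3 (chr2:152337422-152344032, minus strand), a pseudokinase that feeds back on ATF4, had few UMIs. Cancer cells held 8.84, 2.19, 3.65 and 14.5 CPM and neutrophils 7.68, 2.06, 2.05 and 4.39 CPM in OE-Vector 1 and OE-MLKL 1, 2 and 3. The 2 classes overlapped (log2 0.55 ± 0.31, edgeR adjusted p = 0.116), although cancer cells were higher in each library. Macrophages, at 0.247 to 3.92 CPM, were 3.92-fold below cancer cells (edgeR adjusted p = 5.52e-05). T cells held 20 UMIs in all, and none in OE-MLKL 2.

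Read against all genes, such differences between classes were common. Of the 7 genes other than Gdf15, 6 passed between cancer cells and neutrophils, 1 higher and 5 lower in cancer cells, beside 81.2% of the 14265 genes tested (46.3% higher, 34.9% lower). Between macrophages and neutrophils 6 passed, all lower in macrophages, beside 69.9% (37.7% higher, 32.2% lower). Between T cells and neutrophils 6 passed, all lower in T cells, beside 71.9% (36.3% higher, 35.6% lower). With Gdf15 included, all 8 passed between cancer cells and macrophages, 6 higher and 2 lower in cancer cells, beside 69.4% (37.7% higher, 31.7% lower). All 8 also passed between cancer cells and T cells, each higher in cancer cells, beside 66.1% (35.5% higher, 30.6% lower), although Ddit3 was lost without OE-MLKL 1 (adjusted p = 0.0535). Between macrophages and T cells 4 passed, 3 higher and 1 lower in macrophages, beside 60.4% (30.5% higher, 29.8% lower). Passing was thus common among all genes. TMM scaling left the median gene 0.23 (log2) higher in cancer cells than in neutrophils, and RLE scaling left it at -0.02. For macrophages against neutrophils the medians were 0.03 and -0.13, for T cells against neutrophils -0.05 and -0.18, and for cancer cells against T cells 0.04 and -0.08. The balance of all calls moved with it. With TMM higher calls outnumbered lower ones in all 6 pairs, and with RLE lower calls outnumbered higher ones in 5 of them, as in macrophages against neutrophils (4656 higher and 5343 lower), while cancer cells against neutrophils came to 5761 higher and 5728 lower. Neither the direction nor the call of any of the genes was turned by that change of scaling.

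Across the 16 sums of class and library, the gene most like Gdf15 by Pearson correlation of log2(CPM + 1) was Gclm, the modifier subunit of the enzyme that starts glutathione synthesis (r = 0.973). Spp1, the gene of the secreted phosphoprotein osteopontin, followed at 0.920, Fabp4, a fatty acid carrier, at 0.901, Plin3, a lipid droplet coat gene, at 0.895 and 9530068E07Rik at 0.880, out of 11352 genes compared. The stress response genes ranked far lower, from Trib3 at r = 0.569 to Chac1 at r = 0.0680. The sums share libraries and classes, so these are descriptions of likeness. The receptor gene Gfral gave 1 UMI in neutrophils, none in macrophages or T cells and 8 in cancer cells over all libraries, and Ret gave 7, 2, 14 and 35 in neutrophils, macrophages, T cells and cancer cells. Neutrophils, macrophages, T cells and cancer cells held 33869074, 66578268, 13941080 and 409433418 UMIs in all, so the raw counts do not rank the classes. Of the 14 Ret UMIs of T cells, 12 were in OE-Vector 1. These UMIs are too few to compare.

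In neutrophils, the contrast that chose Gdf15, the gene stood at 32.6 CPM in OE-Vector 1 and at 5.77, 4.74 and 7.01 CPM in OE-MLKL 1, 2 and 3, that is 5.84 ± 1.13 (SD, n = 3). The fitted log2 difference, OE-MLKL minus OE-Vector, was -2.72 ± 0.30 (SE). Ddit3 was at 187 CPM against 65.3 ± 22.3, with a log2 difference of -1.77 ± 0.37, and Trib3 at 7.68 CPM against 2.83 ± 1.35, with -1.65 ± 0.52. Sesn2 stood at 90.9 CPM against 57.6 ± 24.4. In Ddit3, Trib3 and Sesn2, and in Gdf15 by its choice, OE-Vector 1 lay above all 3 OE-MLKL libraries. That order was held by 16.1% of the 13253 genes tested and the opposite order by 43.4%, and nothing is read from these counts, since this contrast chose the genes. Atf3, Atf4, Chac1 and Asns lay between the lowest and the highest OE-MLKL value. No gene in the whole table passed in edgeR (0%), 1096 (8.27%) had an unadjusted p under 0.05, DESeq2 passed 93 (0.702%) and limma-voom none.

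**Figure D2:**
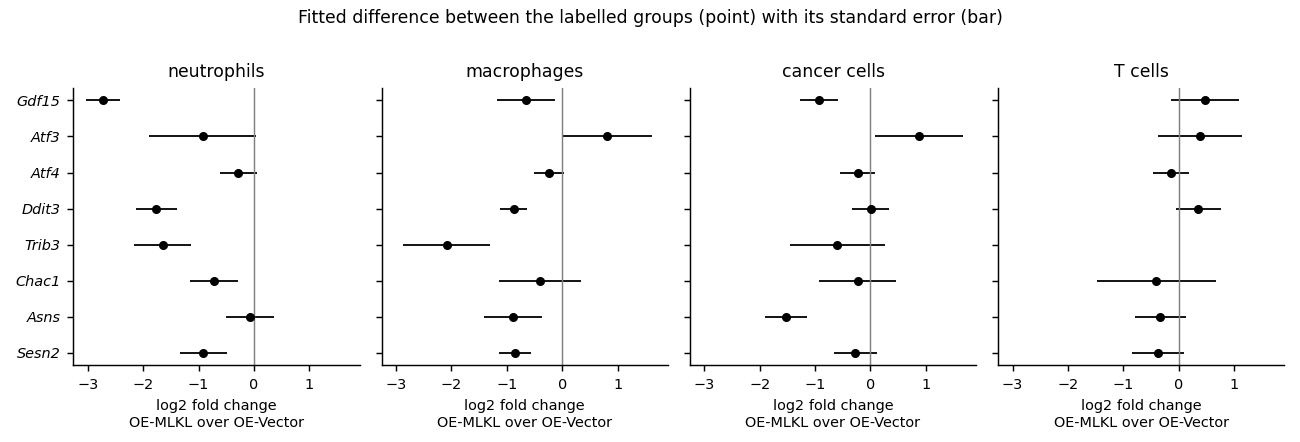
Fitted log2 fold change of OE-MLKL (3 libraries) over OE-Vector (1 library) for each gene and class, with bars for the standard error. Gdf15 lies at -2.72 in neutrophils and near the other genes in macrophages (-0.65), cancer cells (-0.93) and T cells (0.47); Trib3 was not fitted in T cells.

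The Gdf15 of neutrophils in OE-Vector 1 came from few cells. Of 6720 neutrophils, 116 held a UMI, and 24 cells with at least 3 UMIs held 205 of the 306 UMIs (67.0%), up to 20 in a cell. The OE-MLKL libraries had 1, 1 and 4 such cells. Leaving such cells out lowered OE-Vector 1 to 10.9 CPM, against 5.16, 4.36 and 5.75 CPM for OE-MLKL 1, 2 and 3. Of the 24 cells, 15 were scored as doublets (62.5%), against 12.4% of the other neutrophils. Their neutrophil markers summed to 49968.3 CPM against 75224.5 CPM in the others. Their cancer markers summed to 317 CPM against 355 CPM, and their macrophage markers to 561 against 669 CPM. Cells that also passed for cancer cells or macrophages had been left out, which bounds the cancer and macrophage values beforehand. With scored doublets removed the level of OE-Vector 1 was 21.1 CPM and the log2 difference -2.13.

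The level also moved with the strength of the neutrophil markers. In OE-Vector 1 Gdf15 was at 244 CPM in the 467 cells with 0.5 to 1% of their UMIs in neutrophil markers, just under the gate at 1%. It was 86.1 CPM from 1 to 1.5%, 50.6 CPM from 1.5 to 2.5%, 32.2 CPM from 2.5 to 5%, 29.6 CPM from 5 to 10% and 12.2 CPM above 10%. In the OE-MLKL libraries no bin from 0.5% upward exceeded 44.3 CPM. Atf3 and Ddit3 were likewise lower at the highest marker share than at 1 to 1.5%, at 191 against 441 CPM and 146 against 228 CPM in OE-Vector 1, and this held in all 4 libraries. Sesn2 ran the other way, at 126 against 56.4 CPM in OE-Vector 1, again in all 4 libraries, with exact Poisson 95% intervals that overlapped in OE-MLKL 1 and 2. A lower gate, chosen after seeing these values, raised Gdf15 of OE-Vector 1 to 48.4 CPM and the log2 difference to -3.29.

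**Figure D3:**
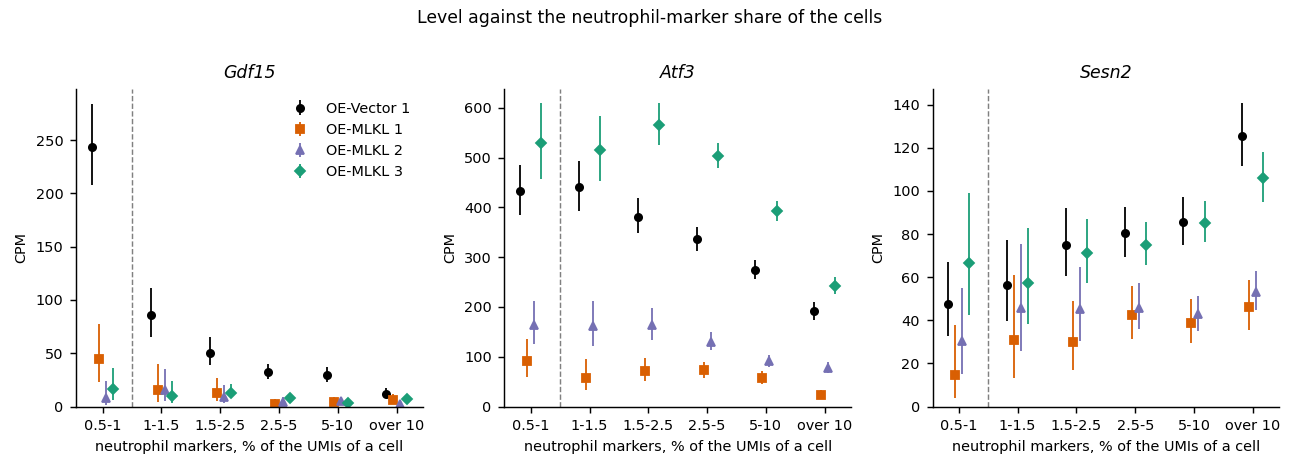
CPM of Gdf15, Atf3 and Sesn2 against the share of the UMIs of a cell in neutrophil markers, by library, with exact Poisson 95% intervals as bars and the gate at 1% as a dashed line. Gdf15 of OE-Vector 1 goes from 244 CPM under the gate to 12.2 CPM above 10%, while Sesn2 goes up to 126 CPM.

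The 45 cells of OE-Vector 1 with at least 3 Gdf15 UMIs, 24 in the gate and 21 in the band from 0.3 to 1% under it, were set beside the 7140 cells of the same range without Gdf15. Ddit3 was at 517 CPM (exact Poisson 95% interval 389 to 673) against 190 CPM, and Trib3 at 65.8 CPM (26.4 to 135) against 8.14 CPM. Atf3 was at 629 against 298 CPM and Atf4 at 488 against 226 CPM. Sesn2 was at 84.5 CPM (38.7 to 160.5) against 86.7 CPM. Chac1, at 18.8 against 37.3 CPM, and Asns, at 18.8 against 7.94 CPM, rested on 2 UMIs each in the high cells (2.28 to 67.9 CPM), so no difference was detectable at this depth. Outside the response, and named after their values were seen, Gadd45g, a growth arrest gene, was at 930 against 58.1 CPM, the heat shock gene Hspa1a at 395 against 14.0 CPM and Hilpda, a hypoxia-induced lipid droplet gene, at 3241 against 309 CPM. Lcn2, an iron-binding granule protein, was at 5693 against 845 CPM. The cells of 1 library are not replicates, and the high cells were deeper (median 1832 against 1205.5 UMIs) and lay more often in the band under the gate (46.7% against 7.51% of cells), where from 0.5 to 1% Atf3 was at 433 CPM and Ddit3 at 274 CPM. These are therefore descriptions of that library.

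Among the monocyte genes measured in neutrophils, 1 stood widely apart between the labels. The monocyte list summed to 547 CPM in OE-Vector 1 and to 7578, 8883 and 2905 CPM in OE-MLKL 1, 2 and 3, with all 5 of its genes detected in each library. The difference lay in Chil3, a chitinase-like protein made by monocytes and by immature neutrophils, at 90.8 CPM against 7217, 8570 and 2510 CPM. The other 4, Ly6c2, Ccr2, Plac8 and Ms4a4c, were at 106, 12.2, 334 and 4.37 CPM in OE-Vector 1 and at no more than 154, 11.4, 253 and 2.69 CPM in OE-MLKL libraries. Median depth was 1208 UMIs in OE-Vector 1, inside the range of 741, 777.5 and 1408 UMIs in OE-MLKL 1, 2 and 3. The part of Chil3 and of depth in the difference of Gdf15 was not tested. Thinned to 500 UMIs, a Gdf15 UMI was seen in 0.804% of neutrophils of OE-Vector 1 and in 0.293%, 0.251% and 0.342% of those of OE-MLKL 1, 2 and 3, and a Ddit3 UMI in 8.14% against 2.44%, 2.61% and 4.38%.

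In macrophages no stress response gene passed between the groups, in edgeR, DESeq2 or limma-voom, and 3 had an unadjusted p under 0.05 in each tool (background 0.0144% of 13849 genes passed in edgeR and 0.585% in DESeq2, and 5.99% had an unadjusted p under 0.05 in edgeR). These 3 were Ddit3, Trib3 and Sesn2. Ddit3 was at 43.1 CPM in OE-Vector 1 and 24.3, 22.9 and 28.7 CPM in OE-MLKL 1, 2 and 3 (log2 fold change -0.88 ± 0.25, edgeR adjusted p = 0.732). Sesn2 had a log2 fold change of -0.85 ± 0.29 (edgeR adjusted p = 0.791). Trib3 was at 3.92 CPM against 0.247, 0.974 and 1.69 CPM (log2 fold change -2.09 ± 0.79, edgeR adjusted p = 0.818). Gdf15 did not separate the groups, at 21.5 CPM against 14.6 ± 6.81 (SD, n = 3; log2 fold change -0.65 ± 0.53, edgeR adjusted p = 0.889). OE-Vector 1 lay above all OE-MLKL libraries in 5 of the 8 genes, Atf4, Ddit3, Trib3, Asns and Sesn2, against 18.3% of all genes tested, and below them all in none, against 35.8%. Of these, Asns was near its free RNA limit in every library, and the free RNA itself held most Asns in OE-Vector 1, at 28.1 CPM against 14.2, 15.9 and 18.4 CPM. Trib3 exceeded its limit by 2.90 CPM in OE-Vector 1 and by 0.0178, 0.549 and 0.167 CPM in OE-MLKL 1, 2 and 3. The log2 fold change was negative in 7 of 8, with a median of -0.75 against 0.05 over all genes tested. Atf3 was the exception at 0.81 ± 0.80, and without OE-MLKL 3 its value was -0.0858.

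In cancer cells, which by the labels carried the construct, again none passed in any of the 3 tools (background 0.00566% of 17657 genes in edgeR, 0.629% in DESeq2), and Gdf15 and Asns had an unadjusted p under 0.05 in edgeR, as 4.85% of all genes did. Gdf15 was at 56.3 CPM in OE-Vector 1 and 37.5, 30.3 and 25.9 CPM in OE-MLKL 1, 2 and 3 (log2 fold change -0.93 ± 0.35, edgeR adjusted p = 0.992). Asns was at 45.0 CPM against 10.5, 15.7 and 25.9 CPM (log2 fold change -1.52 ± 0.38, edgeR adjusted p = 0.915). Without OE-MLKL 3 Asns passed, at -1.79 (edgeR adjusted p = 0.029), in a fit in which 2.33% of 17182 genes passed. These were the only 2 genes in which OE-Vector 1 lay above all OE-MLKL libraries, an order that 17.9% of all genes held, and none lay below them all, as 32.6% of genes did. Ddit3 showed no difference in the fit (0.00 ± 0.33), and the median of the 8 genes was -0.25 against 0.03 over all genes tested. Trib3 spanned 2.19 to 14.5 CPM within the OE-MLKL libraries alone, with OE-Vector 1 between them at 8.84 CPM.

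In T cells 7 genes could be tested and none passed in any of the 3 tools or had an unadjusted p under 0.05 (background 0.0258% of 11643 genes in edgeR and 0.129% in DESeq2, with 5.01% at an unadjusted p under 0.05). Gdf15 was the only gene with OE-Vector 1 below all OE-MLKL libraries, an order held by 26.2% of genes, at values near the free RNA limit (log2 fold change 0.47 ± 0.62, edgeR adjusted p = 0.998). Sesn2 was the only gene with OE-Vector 1 above all, an order held by 18.2%. The difference of the group effect between macrophages, cancer cells and T cells was tested as an interaction, in which none of the 8 genes passed in edgeR, DESeq2 or limma-voom (edgeR adjusted p = 0.629 for Ddit3 to 0.999 for Atf4; 1, 1 and 2 genes with an unadjusted p under 0.05). Over all genes 0.021% of 14310 passed in that test and 6.37% had an unadjusted p under 0.05 in edgeR. The classes come from the same 4 libraries, so their contrasts are not independent of each other.

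Within the cancer cells of a library, cells with a Gdf15 UMI held higher levels of several of the targets in most libraries. Trib3 was at 13.5 CPM in cells with a Gdf15 UMI against 3.43 CPM in cells without in OE-Vector 1. In OE-MLKL 1, 2 and 3 the values were 2.49 against 2.08, 8.01 against 2.18 and 32.6 against 6.05 CPM. The gap was wide in 3 libraries and within counting error in OE-MLKL 1, where the exact Poisson 95% intervals were 1.96 to 3.11 and 1.78 to 2.41 CPM. Chac1 showed the same pattern, at 8.43 against 2.52, 2.55 against 2.501, 5.67 against 2.76 and 19.3 against 6.49 CPM. Asns was at 60.7 against 26.9, 12.2 against 9.88, 25.5 against 12.4 and 44.7 against 17.1 CPM, and its intervals did not meet in any library. Sesn2 was at 19.9 against 11.6, 13.6 against 10.2, 15.004 against 9.23 and 34.6 against 16.9 CPM, likewise apart in each. These intervals, here and for the genes below, cover counting error of pooled UMIs only, and the cells of a library are not replicates. In OE-Vector 1, 64 cancer cells with at least 3 Trib3 UMIs held 410 of the 771, so the intervals understate the spread between cells.

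Atf3 did not share in this, at 68.4 against 64.8, 59.2 against 56.5, 77.3 against 79.1 and 277 against 292 CPM in OE-Vector 1 and OE-MLKL 1, 2 and 3. Ddit3 was at 61.1 against 45.98, 46.6 against 47.4, 53.03 against 45.7 and 95.2 against 80.01 CPM, higher beyond counting error in each library but OE-MLKL 1. Atf4 was at 241 against 191 CPM in OE-Vector 1 and at 163 against 156, 217 against 198 and 286 against 227 CPM in the OE-MLKL libraries. Cells with a Gdf15 UMI were deeper, with a median of 32569.5 against 22053 UMIs in OE-Vector 1 and 15460.5 against 12221.5, 15824.5 against 11700 and 26289.5 against 18972 UMIs in the others. The part of depth was not tested. In OE-Vector 1 and OE-MLKL 1, 2 and 3, 19.1%, 6.89%, 5.30% and 7.05% of cancer cells held at least 3 Gdf15 UMIs. They carried 81.3%, 64.9%, 58.8% and 62.3% of all Gdf15 UMIs of the class. Median depth of all cancer cells was 25523.5, 12719.5, 12316.5 and 20320 UMIs, against 1208 UMIs in neutrophils of OE-Vector 1. A cut of 3 UMIs is passed more easily in deeper cells, so these shares are not compared between classes or libraries. Of the cancer cells with at least 3 UMIs, 17.5%, 30.8%, 37.3% and 24.4% were scored as doublets, against 14.3%, 20.1%, 25.4% and 17.2% of the others. The number scored in a library was fixed by its cell count, so these shares compare only within a library. The part of doublets was not tested. In macrophages 43, 24, 18 and 11 cells (2.06%, 0.915%, 0.709% and 0.363%) held at least 3 UMIs and carried 55.6%, 52.6%, 42.9% and 34.0% of the Gdf15 UMIs, with 51 of the 266 UMIs of OE-MLKL 1 in a single cell. Leaving them out lowered macrophages to 9.82, 10.5, 7.86 and 5.55 CPM. In OE-Vector 1 30.2% of them were scored as doublets, against 9.79% of the other macrophages.

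**Figure D4:**
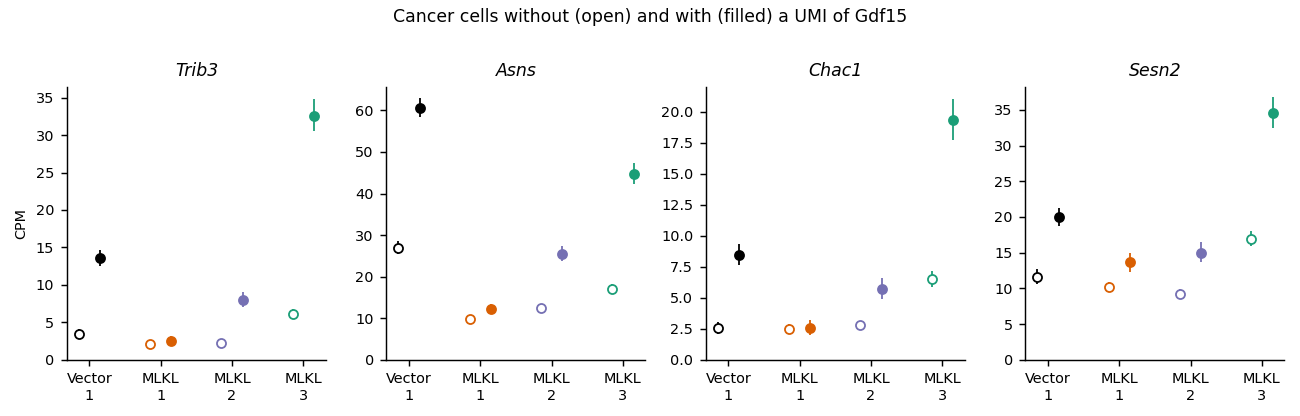
CPM of Trib3, Asns, Chac1 and Sesn2 in cancer cells without (open) and with (filled) a Gdf15 UMI, by library, with exact Poisson 95% intervals as bars. The filled point is higher for all 4 genes in every library, and the gap is smallest in OE-MLKL 1 (Trib3 2.49 against 2.08 CPM).

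The surrounding pathway was followed with 5 gene lists and compared between the groups. Over all genes, 8.27%, 5.99%, 4.85% and 5.01% had an unadjusted p under 0.05 in neutrophils, macrophages, cancer cells and T cells, and 47.5%, 45.8%, 47.2% and 47.7% had a negative log2 fold change. Counts of calls are given for macrophages, cancer cells and T cells. The 16 regulators of the response are the genes of eIF2α, its kinases and phosphatase subunits, their modulators and the exchange factor eIF2B. Of these, none passed in these classes or had an unadjusted p under 0.05. DESeq2 and limma-voom passed none either. The medians were 0.06, 0.01, 0.05 and 0.15 in neutrophils, macrophages, cancer cells and T cells, close to those of all genes. Ppp1r15a, the phosphatase subunit GADD34 that ends the response, was at 719 CPM in neutrophils of OE-Vector 1 and 289, 360 and 800 CPM in those of OE-MLKL 1, 2 and 3 (log2 fold change -0.84 ± 0.57). Between classes 10 of the 16 were higher and 5 lower in cancer cells than in neutrophils, beside 46.3% and 34.9% of all genes. Eif2b3, which encodes a subunit of the exchange factor eIF2B, was among the higher (log2 2.00 ± 0.15, edgeR adjusted p = 7e-09), whereas Ppp1r15a and Eif2ak3, the gene of PERK, were among the lower (log2 -2.51 ± 0.28, edgeR adjusted p = 6.87e-07, and -3.47 ± 0.15, edgeR adjusted p = 2.1e-11).

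Of 39 further ATF4 targets in the files, none passed between the groups in edgeR, DESeq2 or limma-voom in macrophages, cancer cells or T cells, and 2, 2 and 1 had an unadjusted p under 0.05 in edgeR. In cancer cells 30 of 38 had a negative log2 fold change, with a median of -0.26 against 0.03 for all genes. Atf5, a related transcription factor, was at 127 CPM there in OE-Vector 1 and 27.3, 59.7 and 82.5 CPM in OE-MLKL 1, 2 and 3 (log2 fold change -1.32 ± 0.47, edgeR adjusted p = 0.992). In neutrophils the list split 16 to 18 in sign, and Slc7a11, the cystine importer, had the largest difference, at 849 CPM against 138, 120 and 435 CPM (log2 fold change -2.15 ± 0.69). Between classes 29 of 37 targets were higher and 6 lower in cancer cells than in neutrophils, beside 46.3% and 34.9% of all genes. Slc7a11 was among the lower (log2 -4.09 ± 0.54, edgeR adjusted p = 4.76e-06), and Phgdh, which starts serine synthesis, among the higher (log2 2.75 ± 0.15, edgeR adjusted p = 2.75e-10).

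The 16 chaperones and degradation genes of the unfolded protein response had mostly negative differences in every class, in 14, 15, 14 and 15 genes of neutrophils, macrophages, cancer cells and T cells. The medians were -0.52, -0.69, -0.82 and -0.54, against 0.02 to 0.05 over all genes tested. In macrophages, cancer cells and T cells none passed in edgeR, with 6, 4 and 1 at an unadjusted p under 0.05, while DESeq2 passed 1 in macrophages and 1 in cancer cells (background 0.585% and 0.629%) and limma-voom none. The summed level in cancer cells was 4333 CPM in OE-Vector 1 and 1677, 2263 and 3436 CPM in OE-MLKL 1, 2 and 3. Hspa5, the chaperone BiP, was at 862 CPM against 259, 409 and 795 CPM there (log2 fold change -0.98 ± 0.51, edgeR adjusted p = 0.992). In all 4 classes OE-MLKL 3 came closest to OE-Vector 1, followed by OE-MLKL 2 and then OE-MLKL 1.

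The immediate early and dissociation list, which responds to tissue handling, ran the other way in 2 classes. Its summed level in cancer cells was 8489 CPM in OE-Vector 1 and 11790, 10785 and 16149 CPM in OE-MLKL 1, 2 and 3, and in macrophages 7520 against 12632, 10716 and 13385 CPM. In neutrophils it was 26733 against 28181, 22325 and 27460 CPM, and in T cells 4337 against 3563, 3898 and 5226 CPM. The differences were positive in 18 of 20 genes in cancer cells and 15 of 20 in macrophages and negative in 15 of 20 in neutrophils and 11 of 20 in T cells. In macrophages, cancer cells and T cells none passed in edgeR, with 8, 2 and 3 genes at an unadjusted p under 0.05, DESeq2 passed 3 in macrophages and 1 in cancer cells (background 0.585% and 0.629%), and limma-voom passed none. In the interaction of group with class, which covers macrophages, cancer cells and T cells, 10 of the 20 genes had an unadjusted p under 0.05 in each tool (background 6.37% in edgeR). None passed in edgeR or limma-voom, and DESeq2 passed 2, beside 79 of 14310 genes. Atf3, itself an immediate early gene, was highest where this list was highest in cancer cells, macrophages and T cells, in OE-MLKL 3. In neutrophils the list was highest in OE-MLKL 1, where Atf3 was lowest. The part of handling in its level was not tested. The p53 list of 20 genes, chosen because Gdf15 is also a p53 target, holds p53 targets and Trp53 itself. The KPC line carries mutant Trp53, so in cancer cells the list is not read as p53 activity. It showed medians of 0.23, -0.11, -0.13 and -0.13, in neutrophils, macrophages, cancer cells and T cells. None passed in any of the 3 tools in the last 3 of these classes, with 0, 1 and 2 genes at an unadjusted p under 0.05 in edgeR.

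**Figure D5:**
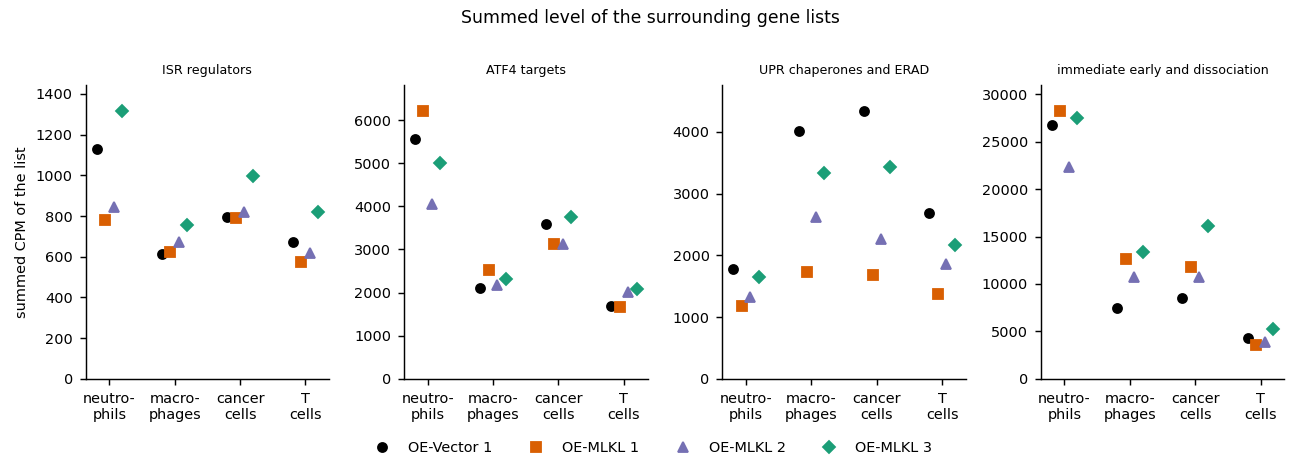
Summed CPM of 4 gene lists in each class, with a point per library (4 libraries). The unfolded protein response list is highest in OE-Vector 1 in all 4 classes (4333 CPM in cancer cells), and the immediate early list is lowest in OE-Vector 1 in macrophages and cancer cells (7520 and 8489 CPM).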

How the data were processed

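Droplet-based 3′ single-cell RNA-seq was made from orthotopic tumours, and the authors deposited unfiltered UMI counts per gene and barcode, not normalised. The submitters' processing notes name Cell Ranger 2.1.1, the file headers Cell Ranger 7.1.0 and the methods of the study another version, and use of intronic reads and of strand in counting is not given in the sources used here. Matrices of 4 of the 6 labelled samples were analysed, with groups and replicate numbers from the labels.

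Barcodes with at least 500 UMIs, more than 200 genes, under 10% mitochondrial and at most 5% haemoglobin UMIs were kept as cells. A class needed at least 3 of its markers and a minimum share of UMIs in them (1% for neutrophils, 0.6% for macrophages, 0.1% for cancer cells, 0.2% for T cells), and cells that passed for several classes were left out. Doublets were scored against simulated doublets with 30 neighbours, and kept in the main values. The cells with the highest scores were marked, at a preset rate of 0.8% per 1000 cells of the library. The share marked in a library is therefore no measured doublet rate. UMIs were summed per class and library and scaled to CPM. edgeR 4.0.16 (R 4.3.3; TMM, filterByExpr, quasi-likelihood test, Benjamini-Hochberg over all genes tested, threshold 0.05) compared the groups within each class, with 2 residual degrees of freedom, the lone OE-Vector library being assumed to vary like the others. Pairs of classes were compared with the library as a block. Scripts were tested on simulated data. Alternatives were DESeq2 1.42.0, limma-voom (limma 3.58.1), RLE size factors, other filters and gates, removal of scored doublets and leaving out each library. By the methods of the study each library came from its own tumour. P-values between the groups rest on the spread among the OE-MLKL tumours, with that of their preparation. Between classes, and in the interaction, they rest on how far the class differences varied from library to library.

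Positions are from GENCODE vM21 (GRCm38), and promoter windows from RefSeq (GRCm38.p6), in which all 8 genes matched. The genes and lists were chosen with earlier results of these data known. Of each list the text names at most 4 genes per comparison, taken from those of largest absolute log2 fold change with a mean of at least 10 CPM, and of genes like Gdf15 the first 5.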

Additional observations from a re-analysis of the deposited data

How the results depend on the processing

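The counts of genes passing between the groups depended on the tool and on single libraries. In neutrophils (0 genes in the main fit) DESeq2 passed 93, no filter on low counts 10, and leaving out 1 library gave 0 to 1444, the latter without OE-MLKL 3. In macrophages (2 genes) the counts were 81 with DESeq2, 0 with limma-voom, 23 with no filter, 0 with a mean of at least 20 UMIs, 4 with the stricter gate, 4 with the lower gate and 0 to 139 with a library left out. In cancer cells (1 gene) they were 111 with DESeq2, 0 with limma-voom and 65 to 400 with a library left out, and in T cells (3 genes) 15, 0 and 29 to 440, with 108 when no filter was used. The interaction (3 genes) gave 79 with DESeq2, 1 with limma-voom, 0 with RLE size factors, 128 with no filter, 1 in cells of at least 1000 UMIs and 500 genes, 0 with the lower gate and 2 to 303 with a library left out. The high ends came without OE-MLKL 3 throughout. The cause was not tested. All 78 counts between pairs of classes stayed within 1.5 times the main count. Gdf15 in neutrophils of OE-Vector 1 was at 21.1 CPM with scored doublets removed and at 48.4 CPM with the lower gate, which was chosen after seeing the data, against 32.6 CPM.

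Of the 31 fitted differences of the genes between groups and the 48 between classes, 10 turned sign under at least 1 alternative, in 17 of 991 values. Between groups these were Asns in neutrophils (0.0378 with the stricter gate, 0.00731 without scored doublets, -0.324 to 0.051 with a library left out), Ddit3 in cancer cells (-0.0186 with limma-voom, -0.029 with the stricter gate, -0.203 to 0.126 with a library left out) and, with a library left out, Atf3 in macrophages (-0.0858 to 1.15) and T cells (-0.766 to 0.721) and Chac1 in cancer cells (-0.933 to 0.0815). The low ends of Atf3 came without OE-MLKL 3. Between classes they were Asns of T cells against neutrophils (0.0279 with limma-voom, 0.0272 with at least 1000 UMIs per cell, -0.282 to 0.165 with a library left out) and, with a library left out, Gdf15 and Atf3 of macrophages against neutrophils (-0.0144 to 1.08 and -0.181 to 0.69) and Ddit3 and Chac1 of macrophages against T cells (-0.0968 to 0.49 and -0.447 to 0.0908). No paired analysis was possible because the groups share only replicate number 1 among the libraries analysed. With 1 OE-Vector library and 24 cells behind most of its neutrophil Gdf15, the group contrasts rest on few tumours and few cells, and Trib3 in T cells, with 20 UMIs in all, was too low to be fitted.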
